A study of Mus musculus with 20 samples.

Results

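The calcium/calmodulin-dependent kinases (CaMKs) were followed through 10 genes: the upstream kinases Camkk1 and Camkk2, the CaMKI isoforms Camk1, Camk1d and Camk1g, Camk4, and the CaMKII subunits Camk2a, Camk2b, Camk2d and Camk2g. Members were chosen by name: every probe that is not a control and that the later annotation of the arrays assigns to one of these symbols. They are 10 of 30222 gene names on the array, with 20 of its 39429 probes.

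Calcium entering through voltage-gated channels during action potentials binds calmodulin, and the loaded calmodulin switches these kinases on. CaMKK1 and CaMKK2 then phosphorylate the activation loop of the CaMKI isoforms and of CaMKIV, a cascade that reaches the nucleus, where CaMKIV phosphorylates the transcription factor CREB. CaMKII assembles from several subunits into one large holoenzyme that phosphorylates itself and so stays active after calcium has fallen, a property long studied as a way for neurons to read the rhythm of their firing.

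RNA came from dorsal root ganglion (DRG) neurons of NIH Swiss mouse embryos at E13.5, kept in culture for weeks and then left unstimulated or driven with electrical pulses of 6 V and 0.2 ms. The pattern 18/1 gave 18 action potentials every 1 min and the pattern 90/5 gave 90 every 5 min, each for 2 hr or 5 hr, so that the total number of action potentials was the same for both patterns at a given time. The 5 conditions (unstimulated, 18/1 2 hr, 18/1 5 hr, 90/5 2 hr and 90/5 5 hr) had 4 samples each on 2 arrays, since Cy3 and Cy5 of every array were given to one condition. All cultures had lost nerve growth factor and serum the night before, and unstimulated dishes were fitted with electrodes as well. Some limits of the model come from the methods: a condition drew on 5 pooled cultures, the growth protocol speaks of spinal cords as the source although the labels say DRG, and a drug (fluorodeoxyuridine) was given against dividing non-neuronal cells.

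Markers were set against the labelled cell type. Of 14 sensory neuron markers, 13 were well above background in all 20 samples, among them Isl1, Pou4f1, Calca and Scn10a. Of 6 markers of spinal cord neurons, only Slc17a6, which sensory neurons also express, was so, and of 5 astrocyte and oligodendrocyte markers 0 were. Some of these were nonetheless well above background in most samples, Aqp4 in 19, Slc32a1 in 17, Gfap in 16 and Slc1a3 in 15, as was the last sensory neuron marker, Trpv1, in 18. Other cells were present too, since 5 of 8 Schwann cell markers (though Erbb3 in 0 samples), 5 of 6 fibroblast markers, 3 of 5 macrophage markers, 1 of 3 endothelial markers and 1 of 3 markers of dividing cells were well above background throughout. The stimulation itself left its mark: Nr4a1, an immediate early gene for a nuclear receptor, was higher than in unstimulated neurons by 4.54 on the log2 scale in 18/1 2 hr (SE 0.37, n = 4 against 4, limma, adjusted p = 4.33e-07). Its differences were 4.44 for 18/1 5 hr, 4.76 for 90/5 2 hr and 5.51 for 90/5 5 hr. Rgs2, a brake on G-protein signalling, was higher by 3.27, 3.63, 3.45 and 3.96 in the order of those conditions, and for both genes all 4 samples of each condition lay above all unstimulated samples. The Rgs2 probe was saturated in 1 sample of 18/1 5 hr, so that size is uncertain, and its call was lost there with the methods' t-test, adjusted or not, and at 18/1 2 hr with array means and with the methods' t-test with adjustment. Nr4a1 was lost with the latter in all conditions but 18/1 5 hr.

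The arrays lay on 3 slides, and the slide bears on nearly every comparison. Slide 1 held the unstimulated and 18/1 2 hr samples, slide 2 the 18/1 5 hr and 90/5 2 hr samples and slide 3 the 90/5 5 hr samples. Only 18/1 2 hr against unstimulated and 90/5 2 hr against 18/1 5 hr can be made within a slide, and in all other comparisons slide and condition cannot be told apart. Median signal over background was highest for slide 2, at 3.64 to 10.4 per sample, with 2.27 to 2.94 for slide 1 and 2.66 to 4.91 for slide 3. The non-uniform mark fell on 6 to 36 spots of a slide 1 sample, 37 to 85 of a slide 3 sample and 45 to 14642 of a slide 2 sample. Saturated spots numbered 840 to 2800 in the samples of slide 2, up to 486 in those of slide 1 and 0 in those of slide 3.

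All 10 genes were measured: each had a probe at least 2 times as bright as its background and free of the non-uniform mark in all 20 samples, as had 13 of the 20 probes. Within at least 1 condition 18 probes met that rule. Of the others, 1 for Camk1d and 1 for Camk2a were well above background in 0 samples. A gene is given below by its brightest probe that met the rule, as normalized log2 signal, a scale on which probes of different genes cannot be set against each other. Replicates of a condition were analysed as deposited, so the p-values measure the spread between these samples, and in whole cultures fewer cells of a type and less RNA per cell cannot be told apart.

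**Figure D1:**
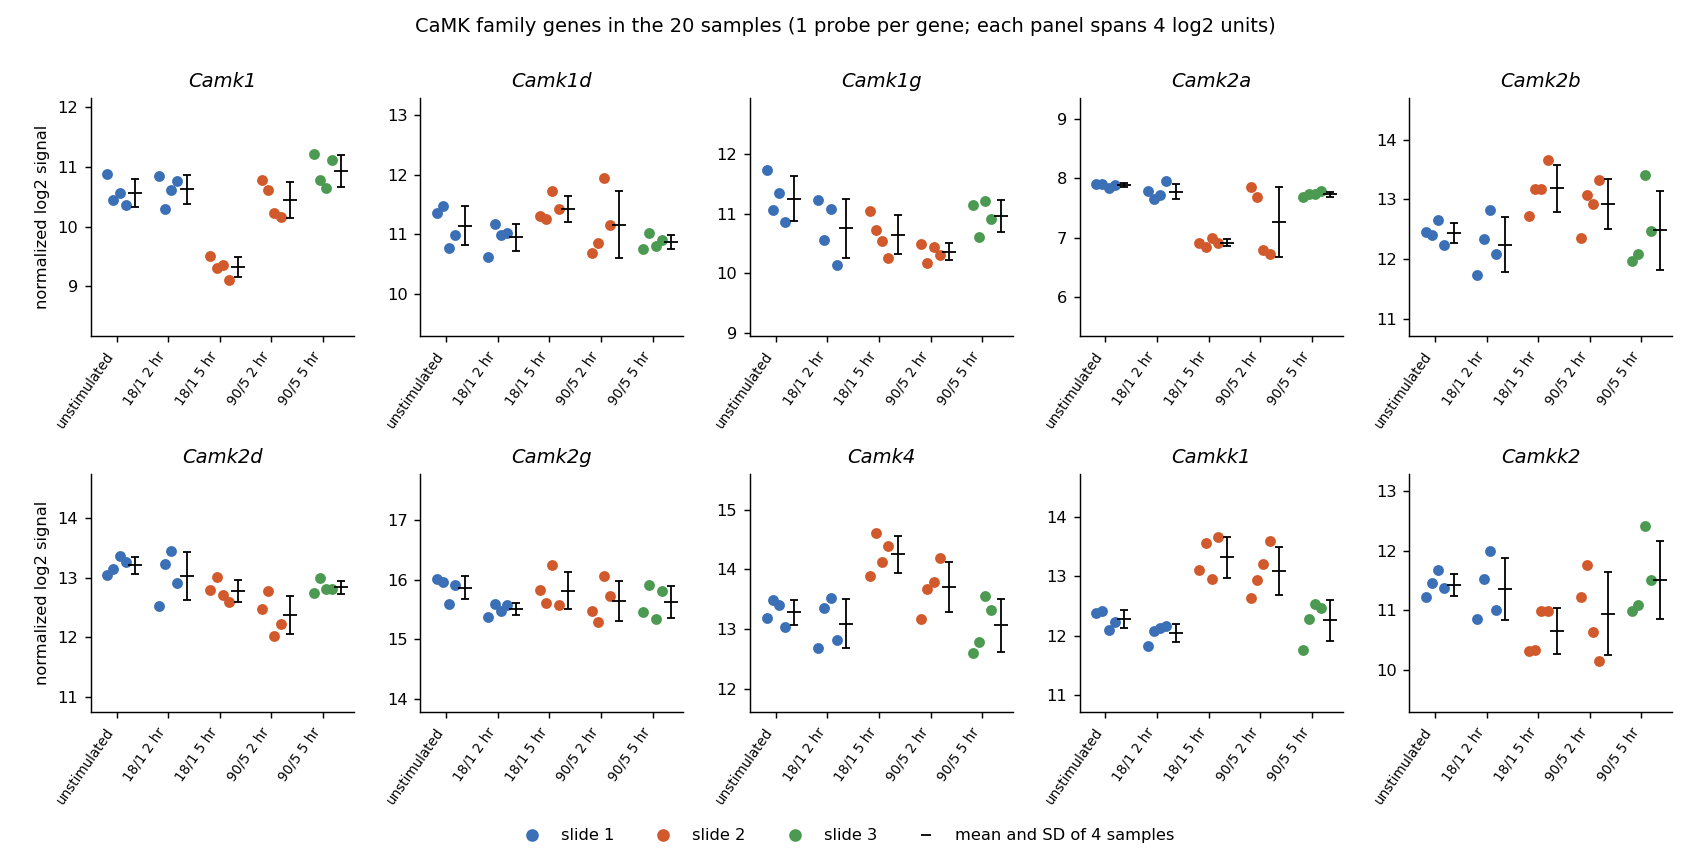
Normalized log2 signal of the 10 CaMK genes (vertical axis, 4 log2 units in each panel) in the 5 conditions (horizontal axis), with a point for each sample coloured by slide and a bar for the mean and SD of 4 samples. Camk1 at 18/1 5 hr, between 9.10 and 9.51, lies below every other sample, while Camk4 and Camkk1 lie above all unstimulated samples there, and Camk2g is saturated in that condition.

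At the earliest point of the 18/1 pattern no kinase gene was called. Differences from unstimulated neurons ran from -0.50 for Camk1g, the CaMKI isoform that is anchored to membranes through lipids, to 0.06 for Camk1, the cytosolic isoform. Of the 10 genes, 0 passed the limma test at 18/1 2 hr, against 0.0193% of all 10355 genes tested. At an unadjusted p under 0.05 there were 0 of the 10 and 92 of all genes. The 10 genes had a median difference of -0.19, and all genes tested had one of 0.00. Both conditions share slide 1, so this comparison is free of the slide. The sizes it could have missed can be read from the intervals: 95% limits were -1.02 to 0.01 for Camk1g (called at -0.65 with array quality weights), -0.49 to 0.62 for Camk1, -0.93 to 0.55 for Camk4 and -1.01 to 0.84 for Camkk2.

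After 5 hr of the same pattern Camkk1, an upstream kinase, was higher and Camk1 and Camk1g were lower. Camk4 was called higher and Camk2a lower by the probes that stand for them, but other probes did not bear this out. Another Camk2a probe gave 3.40. For Camk4 the others gave -0.40, not called, and -0.65, from a probe well above background in 1 of 4 samples of 18/1 5 hr. These 5 of 10 genes stand beside 44.4% of all genes tested that were called in this comparison, so the share of CaMK genes called was close to that of the array. Of all the calls 1549 were upward and 3050 downward, and the median difference was -0.24 over the 10 genes and -0.23 over all genes tested. Scaling matters here: centring each sample on its median, with no further normalization, moved the median of all genes to -0.81, and differences on that scale are to be read against it.

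Camkk1 encodes the kinase CaMKKα, which switches on CaMKI and CaMKIV. Its log2 signal was 12.39, 12.42, 12.10 and 12.24 in unstimulated neurons, and at 18/1 5 hr 13.10 and 13.56 on array 5 and 12.95 and 13.66 on array 6 (Cy3 and Cy5 in that order). All 4 stimulated samples thus stood above all 4 unstimulated ones. The difference was 1.03 (SE 0.26, 95% interval 0.49 to 1.57, adjusted p = 0.00327), a 2.04-fold higher signal. It missed the threshold with centring alone (0.73, adjusted p = 0.0968) and without array 2, 1 of the arrays of unstimulated neurons.

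Camkk2, whose product also phosphorylates the energy sensor AMPK, did not pass: its difference was -0.77 (SE 0.45, adjusted p = 0.165), with 4 of 4 samples below all unstimulated ones. Its second probe, which was well above background in 18 of 20 samples, gave -0.75 (adjusted p = 0.0894), also with 4 of 4 below. That probe was marked as non-uniform in 2 of the 4 samples of 18/1 5 hr, and the probes have 53.3% and 55% GC. Camkk2 was called with centring alone (-1.53), with array quality weights (-0.91) and with the methods' t-test (-0.75), and with the GC trend removed its difference was 0.17.

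Camk1 had the clearest change of the family. Its log2 signal was 10.88, 10.44, 10.57 and 10.36 in unstimulated neurons and 10.85, 10.29, 10.61 and 10.76 at 18/1 2 hr. At 18/1 5 hr it was 9.51 and 9.31 on array 5 and 9.35 and 9.10 on array 6. Every sample of 18/1 5 hr was thus lower than every sample of both other conditions, and lower than all samples of 90/5 2 hr (10.16 to 10.78) and 90/5 5 hr (10.65 to 11.21) as well. Camk1 fell by 1.24 on the log2 scale (SE 0.27, adjusted p = 9.40e-04), a 2.36-fold lower signal. The difference was -1.88 with centring alone, and the call held in all 18 alternative ways of processing and in all 30 fits that left out 1 sample or 1 array. The array carries its probe in 10 spots, of which 8 met the spot rule, and the SD between those 8 spots was 0.18 to 0.43 on slide 2 and 0.21 to 0.45 on slide 1. Ranked by the moderated F over the 5 conditions, Camk1 (F = 10.8) was number 1061 of 10355 genes and Camkk1 (F = 9.32) number 1354.

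Camk1g had log2 signals of 11.74, 11.07, 11.35 and 10.86 in unstimulated neurons and of 11.04, 10.73, 10.55 and 10.26 at 18/1 5 hr. The groups overlapped, with 3 of 4 stimulated samples below all unstimulated ones. The difference of -0.61 (SE 0.25) passed narrowly, with an adjusted p of 0.0492, and was called in 4 of 18 alternatives (-1.38 with centring alone) and 10 of 30 fits without a sample or an array. Camk1d, the third CaMKI isoform, differed by 0.28 (SE 0.32, adjusted p = 0.496), with samples at 11.25 to 11.73 against 10.77 to 11.48, and by -0.47 with centring alone.

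Camk4 encodes CaMKIV, the kinase of the cascade that works in the nucleus. Its log2 signal was 13.18, 13.49, 13.41 and 13.04 in unstimulated neurons, and 13.89 and 14.61 on array 5 and 14.12 and 14.39 on array 6 at 18/1 5 hr. These groups did not overlap, and the difference was 0.97 (SE 0.36, adjusted p = 0.0324). The probe was saturated in 2 of the 4 samples of 18/1 5 hr, so the size is not known. In its place a dimmer probe that stayed below saturation gave -0.40, which was not called. The call for the gene thus depended on the probe, and its direction is uncertain. The call was also lost with centring alone (0.92, adjusted p = 0.0558), with the spot rule asked within a condition only, with no spot rule, and with array quality weights (0.79, adjusted p = 0.056).

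Among the CaMKII subunits, Camk2a, the α subunit that dominates in forebrain, was dim: 7.90, 7.91, 7.84 and 7.88 in unstimulated neurons. At 18/1 5 hr it was 6.92 and 6.85 on array 5, where it was not well above background, and 6.99 and 6.91 on array 6, where it was. The 4 stimulated samples lay below all unstimulated ones and Camk2a fell by 0.96 (SE 0.25, adjusted p = 0.00358), a size left uncertain by the dim signal. This direction turned to 3.40 when another probe stood for the gene. It turned to 0.05 (adjusted p = 0.856) when the trend of the signals on the GC content of the probes was removed.

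The other CaMKII genes did not pass. Camk2b, the β subunit, which binds actin, differed by 0.75 (SE 0.43, adjusted p = 0.158), with 4 of 4 samples above all unstimulated ones. Camk2d, the δ subunit, differed by -0.43 (SE 0.28, adjusted p = 0.223), with 4 of 4 below. Camk2g, the γ subunit, which can carry calmodulin to the nucleus of neurons, was saturated in all 4 samples of 18/1 5 hr, and its measured mean of 15.82 there was under the 15.87 of unstimulated neurons, so no fold can be given. It was saturated in 2 of 4 samples of 90/5 2 hr as well.

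Of 4 fibroblast markers tested, 1 was called in this condition, where 44.4% of all genes tested were. Their mean signal over 4 tested genes was 13.67 to 14.01 in the samples of 18/1 5 hr and 11.85 to 13.26 in unstimulated neurons, and Col1a1 was higher by 1.79 (adjusted p = 0.00801), while Col3a1 (1.07), Dcn (0.97) and Col1a2 (0.50) did not pass. Of 2 macrophage markers tested C1qb was lower (-1.47, adjusted p = 1.28e-04), and so was the 1 endothelial marker tested, Pecam1 (-1.35, adjusted p = 9.08e-04). Both probes were dim, well above background in 18 and 15 of 20 samples and at means of 6.82 and 6.76 in 18/1 5 hr, so the sizes are uncertain. Of 13 sensory neuron markers 1 was higher and 1 lower, and their mean signal was 14.54 to 14.97 against 14.80 to 14.92. What part these markers have in the differences of the kinase genes was not tested.

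**Figure D2:**
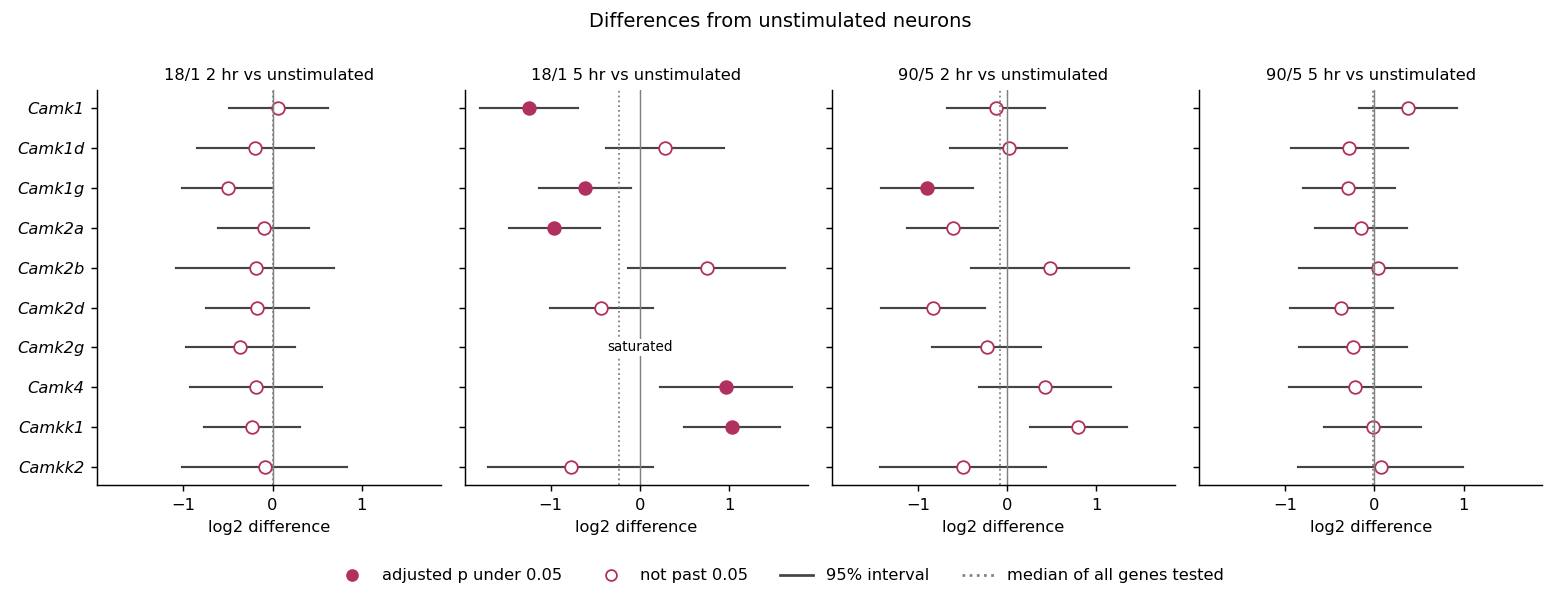
Log2 difference of each CaMK gene from unstimulated neurons (horizontal axis) in the 4 stimulated conditions, with 95% intervals. Filled points passed an adjusted p of 0.05 and dotted lines mark the median of all genes tested: 5 points are filled at 18/1 5 hr, 1 at 90/5 2 hr and 0 in the other panels.

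The long bursts of 90/5 were first compared with unstimulated neurons at 2 hr, across slides. Camk1g alone fell, from 11.74, 11.07, 11.35 and 10.86 to 10.50 and 10.18 on array 7 and 10.45 and 10.31 on array 8. All 4 samples lay below all unstimulated ones, with a difference of -0.90 (SE 0.25, adjusted p = 0.0305), a 1.86-fold lower signal. This 1 of 10 genes compares with 6.97% of all genes tested, and 4 of 10 had an unadjusted p under 0.05, as had 2372 of all 10355. The other 3 were Camkk1 (0.80, SE 0.26, adjusted p = 0.0644, 4 of 4 samples above), Camk2d (-0.83, SE 0.28, adjusted p = 0.0741, 4 of 4 below) and Camk2a (-0.61, SE 0.25, adjusted p = 0.136, 3 of 4 below). Camk1 stayed within the unstimulated spread in 2 of 4 samples and differed by -0.12 (SE 0.27, adjusted p = 0.836). The call of Camk1g was made in 10 of 18 alternatives and in 20 of 30 fits without a sample or an array.

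Arrays 7 and 8 did not read Camk2a alike. Its signal was 7.86 and 7.68 on array 7, close to unstimulated neurons, and 6.80 and 6.73 on array 8, where the probe was not well above background. Another Camk2a probe went the opposite way, at 8.86 and 8.98 on array 7 and 9.58 and 10.33 on array 8 against 7.84 to 8.29 in unstimulated neurons, and was not called either. Array 8 also had 3138 and 6476 non-uniform spots in its colours, against 45 and 139 on array 7.

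By 5 hr of 90/5, on slide 3, 0 of 10 genes were called by limma, against 0.0676% of all genes tested. At an unadjusted p under 0.05 there were 0 of the 10 and 382 of all 10355 genes. Differences ran from -0.37 for Camk2d (SE 0.28, 4 of 4 samples below) to 0.38 for Camk1 (SE 0.27, 2 of 4 above), with a median of -0.18 against -0.01 over all genes tested. Weighting the arrays by quality called 3 of the 10 genes here, Camk1, Camk1g and Camk4, with 2583 genes called in all.

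The patterns were then set against each other at matched times, which at 2 hr sets slide 2 against slide 1. At 2 hr Camkk1 was higher under 90/5 than under 18/1: 12.63 and 12.94 on array 7 and 13.20 and 13.59 on array 8, against 11.83, 12.09, 12.13 and 12.16. The groups did not overlap, and the difference was 1.04 (SE 0.26, 95% interval 0.50 to 1.58, adjusted p = 0.0224), a 2.05-fold higher signal. This was 1 of 10 genes beside 4.96% of all genes tested, and 2 of 10 had an unadjusted p under 0.05, as had 2034 of all 10355, the other of the 10 being Camk2d (-0.66, adjusted p = 0.187). Further Camk2d probes gave 0.18 (adjusted p = 0.702) and -0.46 (adjusted p = 0.34), so its direction depended on the probe. The call of Camkk1 was made in 13 of 18 alternatives and was lost without array 8, and without 6 others of the 30 samples and arrays left out in turn. Array 8 had 3138 and 6476 non-uniform spots in its colours, against 45 and 139 on array 7. With the GC trend removed Camkk1 differed by 0.83 (adjusted p = 0.0786) and was not called.

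At 5 hr 4 of 10 genes differed between the patterns, beside 45.4% of all genes tested. Camk1, at 11.21, 10.78, 10.65 and 11.12 under 90/5, was higher than under 18/1 by 1.62 (SE 0.27, adjusted p = 7.66e-05), a 3.08-fold difference. Camk2a was higher under 90/5 by 0.82 (SE 0.25, adjusted p = 0.0104) with the probe that stands for it and lower with another (-3.38, adjusted p = 4.47e-04), so its direction is in doubt. Camk2d was not called (0.06, adjusted p = 0.88), although 2 of its other probes were, in opposite directions: -0.59 (adjusted p = 0.039) and 1.32 (adjusted p = 4.14e-04). Camk4 was lower, at 12.59, 12.79, 13.55 and 13.32, by a difference of -1.19 (SE 0.36, adjusted p = 0.0102), and Camkk1 was lower, at 11.77, 12.29, 12.53 and 12.47, by one of -1.05 (SE 0.26, adjusted p = 0.00265). The Camk4 probe was saturated in 2 of 4 samples of 18/1 5 hr, an unsaturated probe in its place gave -0.01 (adjusted p = 0.991) and another dim Camk4 probe 0.73 (adjusted p = 0.0171), so the Camk4 call depended on the probe. The call of Camkk1 was lost with centring alone (-0.58, adjusted p = 0.185), with the GC trend removed (-0.67, adjusted p = 0.0515) and without array 9. Centring alone also moved the median of all genes upward, so the -0.58 is to be read against that. For all 4 genes each sample of one pattern lay on the same side of each sample of the other. This comparison sets slide 3 against slide 2, and it shares the 18/1 5 hr samples with the comparison of 18/1 5 hr against unstimulated neurons. Fibroblast markers differed too: 3 of 4 tested were lower under 90/5, Col1a1 by a difference of -1.81.

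Whether the gap between patterns changed with time was tested as the difference between patterns at 5 hr minus that at 2 hr. It passed for 4 of 10 genes, beside 44.8% of all genes tested: Camk1 (1.81), Camk2a (1.32), Camk4 (-1.80) and Camkk1 (-2.09). Camkk1 thus went from higher under 90/5 at 2 hr to lower at 5 hr. Both conditions of slide 2, 90/5 2 hr and 18/1 5 hr, enter this term with a minus sign and those of slides 1 and 3 with a plus sign, so a shift of slide 2 as a whole cannot be told apart from this term.

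Within slide 2, 90/5 2 hr could be set against 18/1 5 hr, which changes pattern and time together. Camk1 was the only CaMK gene called, higher at 90/5 2 hr by 1.12 (SE 0.27, 95% interval 0.57 to 1.67, adjusted p = 0.0124): 10.78 and 10.61 on array 7 and 10.22 and 10.16 on array 8 against 9.10 to 9.51. All 4 samples lay above all 4. The slide is shared, but its arrays were not of 1 quality. Non-uniform spots numbered 5319 to 14642 in the samples of 18/1 5 hr, 45 and 139 on array 7 and 3138 and 6476 on array 8. What part this has in the difference was not tested. This 1 of 10 genes stands beside 12.9% of all genes tested, and 1 had an unadjusted p under 0.05, as had 3167 of all 10355. The call was lost without array 7, and a fit of these conditions alone, or of array means, called 0 genes of the whole array. Camkk1, with means of 13.09 at 90/5 2 hr and 13.32 at 18/1 5 hr, differed by -0.23 (SE 0.26). Camk4, with means of 13.70 and 14.25, differed by -0.55 (SE 0.36), and neither was called. The Camk4 probe was saturated in 2 of 4 samples of 18/1 5 hr, so that size is not known. With centring alone Camkk1 differed by 0.41, on a scale where the median of all genes lay higher still.

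Several genes have more than 1 probe, and these did not always give the same answer, at 18/1 5 hr as between the patterns. Coordinates of probes are those of the array annotation, on the mm9 build. For Camk4, the probe at chr18:33355362-33355421 (40% GC) gave 0.97, that at chr18:33345703-33345763 (35% GC) gave -0.40 (adjusted p = 0.427) and that at chr18:33099131-33099190 (55% GC, well above background in 3 of 4 unstimulated samples and 1 of 4 of 18/1 5 hr) gave -0.65 (adjusted p = 0.0323). For Camk2d, a probe at chr3:126543223-126543282 (55% GC) fell by 1.19 (adjusted p = 0.00109), from between 10.11 and 10.34 to between 8.64 and 9.27, whereas those at chr3:126547685-126547744 and chr3:126545798-126545857 (both 38.3% GC) gave -0.43 and 0.22, neither called.

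The Camk2a probes were furthest apart. The one used above lies at chr18:61144458-61144517 and has 55% GC. The other, at chr18:61147739-61147798 with 35% GC, read 8.29, 7.98, 7.84 and 8.04 in unstimulated neurons and 12.34 and 13.36 on array 5 and 9.72 and 10.35 on array 6 at 18/1 5 hr, a difference of 3.40 (adjusted p = 5.03e-04). Its spot was marked as non-uniform in 3 of those 4 samples and in 1 sample of 90/5 2 hr. The arrays of 1 condition thus differed from each other by more than the stimulated and unstimulated samples did for the first probe. The second Camk2b probe, at 50% GC, read 8.25 and 8.52 on array 5, above all unstimulated samples, and 6.54 on array 6 in both colours, below all of them. It was well above background in 2 of these 4 samples and non-uniform in 2, so no difference is given for it.

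A trend with base composition ran through the whole array in every comparison that sets slide 2 against another slide. The median difference at 18/1 5 hr was 0.53 over genes whose probe had under 35% GC, 0.28 from 35 to 40%, -0.14 from 40 to 45%, -0.59 from 45 to 50%, -0.80 from 50 to 55% and -1.05 from 55% on. From the lowest to the highest class the medians went from -0.76 to 1.15 between patterns at 5 hr, from 0.54 to -0.40 between patterns at 2 hr and from 0.49 to -0.45 at 90/5 2 hr, with -0.15 to 0.08 at 90/5 5 hr and -0.03 in both at 18/1 2 hr. Within slide 2 they were 0.01 and 0.56. With that trend removed at 18/1 5 hr, a step chosen after the data were seen, Camk1 (-0.89, adjusted p = 0.00973), Camk4 (1.07, adjusted p = 0.0273) and Camkk1 (0.73, adjusted p = 0.0336) were still called, and Camk2a and Camk1g (-0.38, adjusted p = 0.259) were not. Camk1, with 43.3% GC, lay below the median of its GC class, and Camkk1, with 35% GC, above that of its own.

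**Figure D3:**
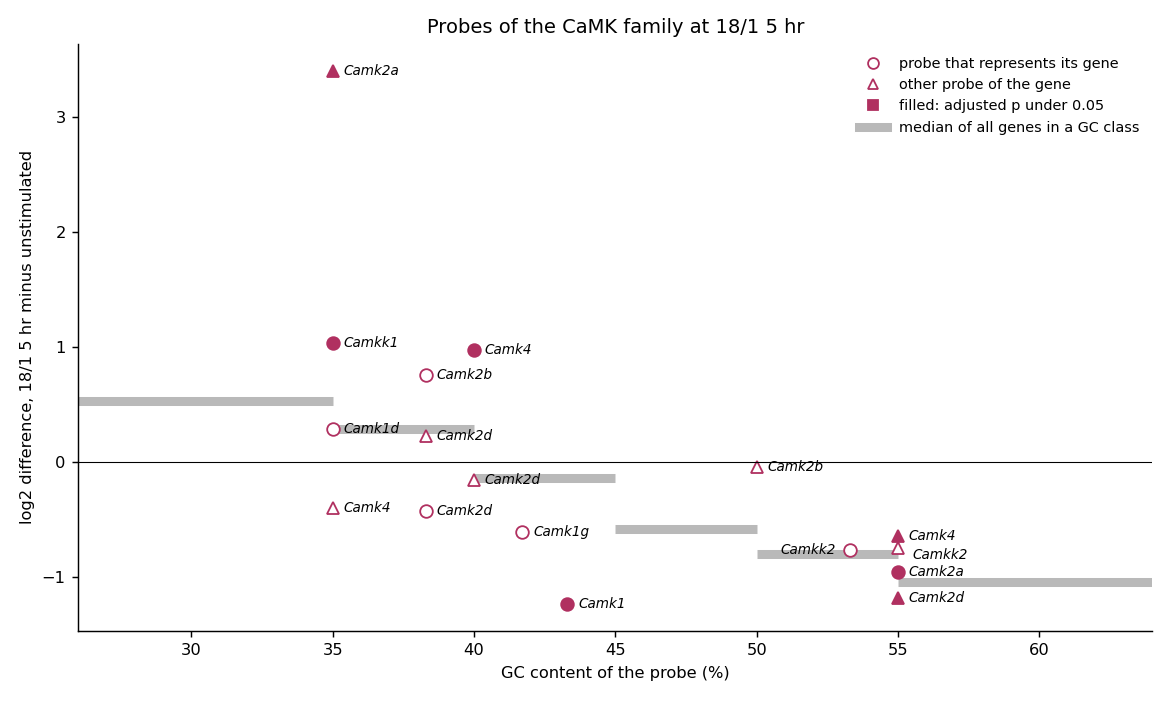
Log2 difference between 18/1 5 hr and unstimulated neurons (vertical axis) against the GC content of the probe in percent (horizontal axis), for each CaMK probe that met the spot rule in at least 1 condition, the saturated Camk2g left out, from fits of every probe. Filled symbols passed an adjusted p of 0.05 and grey bars are medians of all genes in a GC class. Probes of Camk2a, Camk4 and Camk2d spread over both sides of 0, and the grey bars step down from 0.53 to -1.05.

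**Figure D4:**
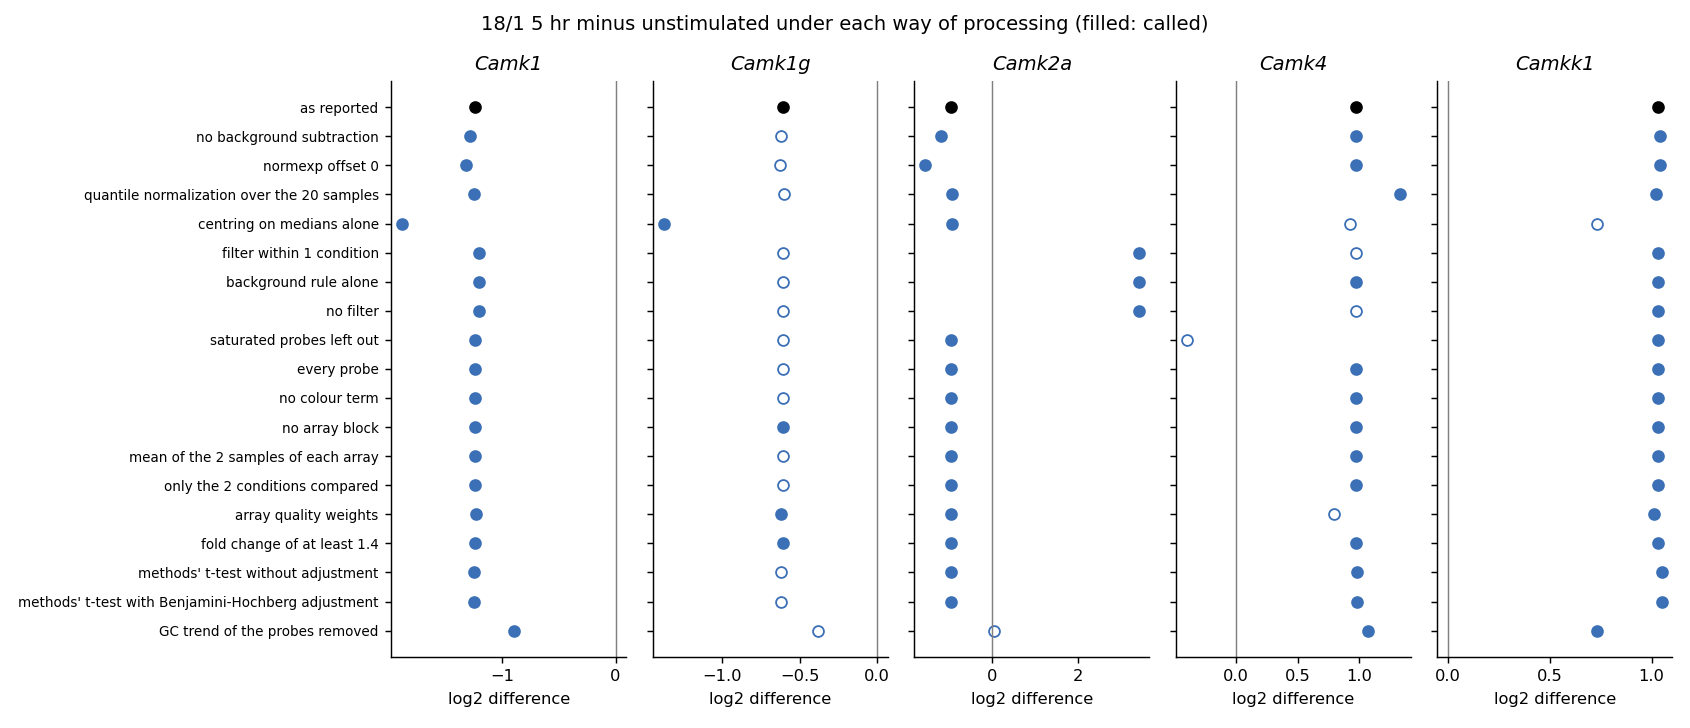
Log2 difference between 18/1 5 hr and unstimulated neurons (horizontal axes) for the 5 genes called, under each way of processing (vertical axis), filled where called. Camk1 is filled throughout and stays between -1.88 and -0.89, Camk2a crosses to 3.40 in 3 settings and 0.05 in 1, Camk4 crosses to -0.40 in 1, and Camk1g is filled as reported and in 4 other settings.

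Promoter sequence is printed for 3 of the called genes, since their signals moved in the same comparison: Camk1 and Camk1g down and Camkk1 up at 18/1 5 hr. RefSeq tables (GRCm38.p6) held a start for 7 of the 10 genes, Camk1, Camk1d, Camk1g, Camk2b, Camk2d, Camkk1 and Camkk2. The 250 bases before each start were searched on both strands for the cyclic AMP response element TGACGTCA, bound by CREB, for its half-site TGACG, which the full element contains, and for the CArG box, the MEF2 site and the NF-kB site. Capitals mark the half-site. The starts used for Camkk1 and Camk1g lie inside the bounds that the RefSeq gene table gives these genes, which begin further upstream. The Camk1 stretch is chr6:113343923-113344172 on the minus strand, that of Camk1g chr1:193370283-193370532 on the minus strand and that of Camkk1 chr11:73018738-73018987 on the plus strand.
Camk1: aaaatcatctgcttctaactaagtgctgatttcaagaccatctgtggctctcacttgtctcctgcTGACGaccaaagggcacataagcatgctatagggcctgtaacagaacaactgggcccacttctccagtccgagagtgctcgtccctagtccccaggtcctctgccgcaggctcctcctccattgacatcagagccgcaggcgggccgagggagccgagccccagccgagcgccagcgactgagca
Camk1g: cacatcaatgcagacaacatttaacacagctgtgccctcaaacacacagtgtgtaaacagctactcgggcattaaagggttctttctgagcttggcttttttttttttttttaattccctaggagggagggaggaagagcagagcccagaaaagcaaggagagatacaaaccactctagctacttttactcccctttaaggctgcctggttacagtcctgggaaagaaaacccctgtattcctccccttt
Camkk1: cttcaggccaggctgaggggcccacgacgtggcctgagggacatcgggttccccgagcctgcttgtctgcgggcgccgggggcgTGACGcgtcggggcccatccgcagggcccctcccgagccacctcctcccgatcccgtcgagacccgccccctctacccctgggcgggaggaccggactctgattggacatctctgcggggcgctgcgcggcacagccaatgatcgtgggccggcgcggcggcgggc
The half-site occurs 1 time in Camk1, 185 bases before the start, and 1 time in Camkk1, 166 bases before it, and not in the stretches of the other 5 genes. It lies in 17.8% of all 32841 promoters searched. The full element (1.55% of promoters), the CArG box (1.47%), the MEF2 site (2.92%) and the NF-kB site (3.9%) are in 0 of these stretches. Camk1, which fell, and Camkk1, which rose, share the half-site. A match is only a run of letters in this window.

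The genes around the kinases were described from 4 lists, of calmodulin and its binding proteins, inhibitors and phosphatases, other kinases of the CaMK group, and substrates and effectors, with 41 of 56 genes tested. At 18/1 2 hr and at 90/5 5 hr 0 of the 41 were called by limma, with 0 and 1 at an unadjusted p under 0.05. At 18/1 5 hr 15 were called, 7 up and 8 down, and at 90/5 2 hr 4, all up, where 44.4% and 6.97% of all genes tested were called. The counts of single lists at 18/1 5 hr are likewise to be read against that 44.4%.

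Calm2 and Calm3 encode the same protein, calmodulin itself. Calm3 had a log2 signal of 13.87, 14.42, 14.03 and 14.17 in unstimulated neurons, of 15.23, 15.02, 16.04 and 15.37 at 18/1 5 hr and of 15.32, 15.15, 15.50 and 15.18 at 90/5 2 hr. It was higher in all samples of both conditions of slide 2, by 1.29 (adjusted p = 0.00228) and 1.16 (adjusted p = 0.0257), but the probe was saturated in all 4 samples of 18/1 5 hr and in 2 of 4 of 90/5 2 hr, so the sizes are not known. The probe has 28.3% GC, a second probe (38.3% GC) gave 0.59 in a fit with no spot rule (adjusted p = 0.193), and with the GC trend removed the differences were 0.45 and 0.65, neither called. In all, Calm3 was called in 14 of 18 alternatives at 18/1 5 hr, centring alone being among those that lost it. At 90/5 2 hr it was called in 12 of 18 and in 23 of 30 fits without a sample or an array. Calm2 was saturated in all 4 samples of 18/1 5 hr and of 90/5 2 hr and in 2 of 4 unstimulated samples, so no difference is given for it.

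Among proteins that bind calmodulin, 2 of the 7 genes tested in that list fell at 18/1 5 hr: Marcksl1 (-2.65, SE 0.46, adjusted p = 1.52e-04) and Marcks (-1.86, SE 0.50, adjusted p = 0.00497), both membrane proteins that bind actin and release calmodulin when phosphorylated. All 4 samples were below all unstimulated ones for each, and the call of Marcks was lost without array 2 (-1.65), with no spot rule and with the methods' t-test with adjustment. Of the inhibitors and phosphatases, 2 of 8 rose, the catalytic subunits Ppp1cb (1.12, adjusted p = 0.00255) and Ppp2cb (0.89, adjusted p = 0.0118) of protein phosphatases that dephosphorylate CaMKII and CaMKIV. Both were saturated in 2 of 4 samples, so the sizes are not known. With centring alone neither was called, and Ppp2cb was also lost with the GC trend removed (0.59, adjusted p = 0.0662), with the methods' t-test with adjustment and without arrays 1 (0.89), 2 (0.88) or 5 (0.59). The CaMKII inhibitor Camk2n2 differed by -0.39 (adjusted p = 0.221) at 18/1 5 hr, and Camk2n1, which met the spot rule only within a condition, by 0.23 (adjusted p = 0.617).

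Of the other kinases of the CaMK group, 3 of 8 were called at 18/1 5 hr. Dapk1, a death-associated kinase that calmodulin activates, rose by 1.16 (adjusted p = 0.00348). Eef2k, the calmodulin-dependent kinase that slows translation elongation, fell by 1.47 (adjusted p = 8.16e-05), and Dclk1, a microtubule-associated kinase, fell by 1.38 (adjusted p = 0.00116), with all 4 samples on the same side for each of the 3. The call of Dapk1 was lost with centring alone (0.41) and without array 1 (1.09), Eef2k fell by only 0.60 (adjusted p = 0.0215) with the GC trend removed and was dim (well above background in 18 of 20 samples and at 6.68 to 7.22 in 18/1 5 hr, so the size is uncertain), and Dclk1 by 0.85 without array 5.

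Substrates and effectors came next. Hdac7, a class IIa histone deacetylase that CaMKs drive out of the nucleus, rose by 2.85 (SE 0.47, adjusted p = 1.02e-04) at 18/1 5 hr and 2.34 (adjusted p = 0.00425) at 90/5 2 hr. Mef2a, a transcription factor that such deacetylases hold in check, rose by 2.24 (SE 0.30, adjusted p = 1.33e-05) and 1.91 (adjusted p = 4.42e-04). Both were higher in all 4 samples of each condition and near 0 on the other slides, at 0.19 and -0.05 for 18/1 2 hr and 0.28 and -0.24 for 90/5 5 hr, and with the GC trend removed Hdac7 (3.08) and Mef2a (2.21) were still called at 18/1 5 hr. With the methods' t-test neither was called there, adjusted or not. At 90/5 2 hr Hdac7 was lost in 4 of 18 alternatives and without arrays 1 (2.22), 2 (2.47) or 8 (1.75), and Mef2a with the methods' t-test with adjustment. Crebbp, the coactivator that binds phosphorylated CREB, rose by 1.29 (adjusted p = 0.00156) at 18/1 5 hr. Its size depended on the processing, at 2.30 with the GC trend removed and 0.84 without array 5, and it was not called with centring alone (0.77) or with either form of the methods' t-test.

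On the lower side at 18/1 5 hr were the AMPK β subunits Prkab2 (-1.24, adjusted p = 0.00135) and Prkab1 (-1.14, adjusted p = 0.00129; a dim probe, well above background in 15 of 20 samples and at 6.61 to 6.93 in 18/1 5 hr, so the size is uncertain), the synaptic vesicle protein Syn1 (-0.92, adjusted p = 0.0344; 0.02 with the GC trend removed) and the CREB coactivator Crtc2 (-0.76, adjusted p = 0.0414), which was named after its value was seen. The size of Prkab2 was -0.78 without array 5, and that of Prkab1 -0.56 with the GC trend removed. Syn1, saturated in 1 sample of 18/1 5 hr, was also lost in 8 of 30 fits without a sample or an array. Against unstimulated neurons the AMPK γ subunit Prkag1 was called only at 90/5 2 hr (0.80, adjusted p = 0.0252), a call lost with the GC trend removed (0.60, adjusted p = 0.127), in 5 of 18 alternatives in all and in 8 of 30 fits without a sample or an array, and its difference at 18/1 5 hr was 0.37 (adjusted p = 0.161). In all, 7 of 18 tested genes of the list were called at 18/1 5 hr and 3 of 18 at 90/5 2 hr, beside 44.4% and 6.97% of all genes tested.

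Activity genes, the list that held Nr4a1 and Rgs2, had 2 of 6 tested genes called in 18/1 2 hr, 4 in 18/1 5 hr, 5 in 90/5 2 hr and 4 in 90/5 5 hr, all higher, beside 0.0193%, 44.4%, 6.97% and 0.0676% of all genes tested. At an unadjusted p under 0.05 there were 6, 4, 6 and 6 of the 6. Bdnf, a neurotrophin gene under CREB and CaMKIV control, rose by 2.37 (adjusted p = 7.57e-06) at 18/1 5 hr. Its means were 11.44, 11.70 and 11.95 in 18/1 2 hr, 90/5 2 hr and 90/5 5 hr against 10.52 in unstimulated neurons. Every sample of these conditions also lay above all unstimulated ones. Egr1 rose by 2.71 (adjusted p = 0.00693) and 3.18 (adjusted p = 0.0322) at 90/5 2 hr and 90/5 5 hr. At 18/1 2 hr the Egr1 difference was 2.71 as well (adjusted p = 0.447), with means of 10.96 in both 2 hr conditions against 8.25, and at 18/1 5 hr it was 1.00 (adjusted p = 0.17), with samples spread from 7.91 to 10.67. Its call at 90/5 5 hr was lost in 6 of 21 alternatives and 12 of 30 fits without a sample or an array, and that at 90/5 2 hr in 3 of 18 and without arrays 1, 2 or 8.

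Genes whose signal ran most like that of Camk1 over the 20 samples included Gstm4 (Pearson r = 0.96), Nubp2 (0.96), Stk30 (0.95) and Mvp (0.95). These samples share slides and conditions, and at 18/1 5 hr these 4 genes differed from unstimulated neurons by -1.63, -1.11, -1.15 and -1.18. Over the 12 samples off slide 2 the values of r were 0.70, 0.81, 0.78 and 0.84.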

How the data were processed

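Total RNA of 20 samples was measured on 10 two-colour Agilent arrays, 4 samples for each of 5 conditions. For both colours the authors deposited linear intensities without normalization, as spot means with local background medians, and 36 further columns per colour were not used. Feature Extraction 10.7.1.1 (slide 1) and 10.7.3.1 (slides 2 and 3) had written the files, not the version named in the methods. Gene names are those of the later of 2 annotations, which differ at 8333 of 44397 spots.

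The R package limma 3.58.1 was used (R 4.3.3; tables were read with data.table, version 1.17.8). Background was corrected by normexp (offset 50), colours by loess with controls at weight 0, and arrays by Aquantile. Spots had to be 2 times background and not non-uniform in all 20 samples, spots of a probe were averaged, and each of 10355 genes was taken from its brightest probe. limma fitted condition means and a colour term, with arrays as random blocks (consensus correlation 0.53), and p-values were Benjamini-Hochberg adjusted over all genes (threshold 0.05). Signal over background of 2.27 to 10.4 and 2 arrays per condition limit the precision. The fit was tried on simulated data that held array effects but no slide shift and no GC trend. That trial thus has no bearing on differences between slides. Figures were drawn with Python 3.11.15, numpy 2.4.6 and matplotlib 3.10.9. Promoters are from RefSeq.

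The CaMK genes and all lists were chosen with earlier results of these data known. Named genes were all 10 CaMK genes with each probe, Calm2, Calm3, Camk2n1 and Camk2n2, Nr4a1 and Rgs2, up to 3 called genes per list and direction in each comparison with unstimulated neurons, and genes among the 5 most like the CaMK gene with the largest F. Genes outside the spot rule come from a fit that asks it of 1 condition. Alternatives changed the background correction, normalization, spot rule, saturated probes, probe choice, colour term, array block, samples fitted, array weights, fold minimum (1.4) and test, or left out samples and arrays. Added after the data were seen were the removal of the GC trend and a filter without slide 2. Replicate numbers were checked as a pairing and not used as one. The paper's pathway programs, immunoblots and RT-PCR were not repeated, and which replicate lay in which colour of arrays 5 to 8 is not known.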

Additional observations from a re-analysis of the deposited data

Results flagged for a closer look

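In 4 genes the gap between the stimulation patterns at 5 hr differed from that at 2 hr, by the limma test of that difference. The difference between patterns (90/5 minus 18/1) at 5 hr minus that at 2 hr was 1.81 for Camk1 (SE 0.38, adjusted p = 6.66e-04), 1.32 for Camk2a (SE 0.35, adjusted p = 0.00406), -1.80 for Camk4 (SE 0.50, adjusted p = 0.00654) and -2.09 for Camkk1 (SE 0.37, adjusted p = 1.40e-04). For Camk1 the gap was -0.19 at 2 hr and 1.62 at 5 hr, with 4 of 4 samples higher at 5 hr, and for Camkk1 it was 1.04 and -1.05, with 4 of 4 samples on each side. Since this term sets 90/5 2 hr and 18/1 5 hr, both on slide 2, against conditions of slides 1 and 3, a shift of slide 2 cannot be told apart from a change of the pattern difference with time, and 44.8% of all genes tested passed it. The Camk2a value rests on a dim probe, and another probe of the gene gave the opposite direction at 5 hr (-3.38). The Camk4 value rests on a probe that was saturated in 2 of 4 samples of 18/1 5 hr. Its other probes gave -0.01, not called, and 0.73 between patterns at 5 hr. The latter probe was well above background in 1 of 4 samples of 18/1 5 hr. The value thus depends on the probe, and the direction is uncertain. Of 50 groups of 4 samples, 0 held a sample set apart from the others by Dixon's ratio, where chance would give about 1 in 20 if samples were independent. Samples of an array were not, and the ratio looks for 1 sample apart, so it cannot flag a whole array. Camk2a at 90/5 2 hr was such a case, at 7.86 and 7.68 on array 7 and 6.80 and 6.73 on array 8.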

How the results depend on the processing

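Over the 7 comparisons, 18 to 21 alternatives and 30 fits without a sample or an array, the count of CaMK genes called stayed within 1.5 times its value in 100 alternatives, was larger in 10 and smaller in 22. Counts that were 0 and stayed 0, as at 18/1 2 hr and 90/5 5 hr with all but array weights, are among the 100. That figure is thus no measure of how firm the calls were. Where a value changed, the cause was not tested unless given.

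Counts at 18/1 5 hr (5 genes) were 3 with the spot rule asked within 1 condition, with no spot rule, with saturated probes left out and with the GC trend removed. At 90/5 2 hr (1 gene) the count was 0 with centring on medians alone, the rule within 1 condition, no rule, no colour term, array means, only the conditions compared, the methods' t-test with adjustment and the GC trend removed, 4 with no array block, and 2 with array weights and with the methods' t-test unadjusted. For the patterns at 2 hr (1) it was 0 with no rule, array means, only the conditions compared, the adjusted t-test and the GC trend removed, and 2 with no array block. For the patterns at 5 hr (4) it was 7 with no array block and 2 with the GC trend removed. For 90/5 2 hr against 18/1 5 hr (1) it was 2 with centring alone, with the rule within 1 condition and with the background rule alone, and 0 with no rule, array means, only the conditions compared and the adjusted t-test. With array weights it was 1 at 18/1 2 hr and 3 at 90/5 5 hr, where the count was otherwise 0 and where 1600 and 2583 genes of the array were called. The other counts stand without the share of all genes called under the same setting, so they are no result about the CaMK genes as such.

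Without a sample or an array the counts ran from 2 to 5 at 18/1 5 hr, 0 to 4 at 90/5 2 hr, 0 to 3 and 1 to 5 between the patterns at 2 hr and 5 hr, and 0 to 2 for 90/5 2 hr against 18/1 5 hr, and were 0 at 18/1 2 hr and 90/5 5 hr. These counts too stand without the share of all genes called in the same fits, so they are no result about the CaMK genes as such. Camk4 at 18/1 5 hr was lost without unstimulated replicates 1 or 4, the Cy5 sample of array 5, 90/5 5 hr replicate 4 or arrays 1, 2 or 3 (0.83 at the lowest), and Camkk1 without array 2 (0.91 to 1.15). Camk1g ranged from -0.85 to -0.37 and was lost in 20 of 30, among them each fit that left out 1 unstimulated sample. At 90/5 2 hr it ranged from -1.05 to -0.75 and was lost without unstimulated replicates 1 or 2, the Cy3 sample of array 8, 90/5 5 hr replicate 4 or arrays 1, 2, 3, 4, 8 or 10. Between patterns, Camkk1 at 2 hr was lost without 18/1 2 hr replicate 4, 90/5 5 hr replicate 4 or arrays 1, 2, 3, 4 or 8 (0.73 to 1.34), and at 5 hr without array 9 Camk4 (-1.56 to -0.81), Camkk1 (-1.29 to -0.81) and Camk2a (0.78 to 0.85), the last also without array 10. Camk1 at 90/5 2 hr against 18/1 5 hr was lost without array 7 (0.87 to 1.37).

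Directions of called values turned for Camk2a with the rule within 1 condition or the background rule alone (3.40 at 18/1 5 hr, -3.38 between patterns at 5 hr, -2.01 for 90/5 2 hr against 18/1 5 hr) and with no rule (3.40 and -3.38), where a different probe stands for the gene, and with the GC trend removed (0.05 and -0.29). They turned for Camk4 with saturated probes left out (-0.40 at 18/1 5 hr, not called), again a change of probe. Camk2g with centring alone read 1.31 between patterns at 5 hr and 1.12 for 90/5 2 hr against 18/1 5 hr, where all genes had medians of 0.93 and 0.83, but its probe was saturated in all 4 samples of 18/1 5 hr and 2 of 4 of 90/5 2 hr, so neither sign can be read. Values called in neither setting also changed sign, among them Camk2a with the other probe (upward at 90/5 2 hr, and 1.63 between patterns at 2 hr). Between patterns at 5 hr, Camkk1 was not called with centring alone (-0.58) or the GC trend removed (-0.67), nor Camk4 with saturated probes left out (-0.01) or no rule. Of 29 differences of named genes in the lists, 28 kept their direction in all alternatives, Syn1 being the exception (0.02 with the GC trend removed), 9 were called in all of them and 20 in all fits without a sample or an array.

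With slide 2 left out, 0 CaMK genes were called at 18/1 2 hr and 90/5 5 hr. Samples of the same replicate number correlated at -0.05 to 0.72 over 12 pairs, 14 of 24 searches matched best to the same number, and a block for replicate number called 0 and 0 in those comparisons. The share of all genes called in these fits is not given, so the counts are no result about the CaMK genes as such. Signal over background as low as 2.27 limits what can be seen of dim probes such as those of Camk2a.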

Other observations

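For Camkk2 the SD between the 4 samples was 0.18 in unstimulated neurons and 0.52, 0.38, 0.70 and 0.66 in 18/1 2 hr, 18/1 5 hr, 90/5 2 hr and 90/5 5 hr. The other 38.3% GC probe of Camk2d read -0.04 and -0.37 from unstimulated neurons at 90/5 2 hr and 90/5 5 hr, and its 55% GC probe -0.73 and 0.13, none called.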
